A study of Mus musculus with 2 samples.

Results

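Myelocyte-like cells in S phase are bone marrow cells that hold transcripts of the specific granules, as developing granulocytes do, and of genes switched on for DNA replication. They were found among sorted marrow cells of SAA mice, a model of severe aplastic anemia, and of radiation control (RC) mice. The mice were F1 hybrids of C57BL/6 and BALB/c, and all received 300 rads. SAA mice additionally received 65000000 splenocytes of C57BL/6 (B6) donors by intraperitoneal injection, and RC mice none. The sorted fraction was live (7-AAD-) and CD11b+Ly6C+Ly6G-. Each condition is 1 library made from the combined cells of 3 mice. No value can be given per mouse, there are no replicates and no test between SAA and RC was possible. The labels give no day of harvest or age. Donor and host cells were not told apart in these counts.

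Expression was counted per gene and cell in unique molecular identifiers (UMIs), each standing for 1 captured transcript. The SAA library held 825 cells and 5592265 UMIs and the RC library 798 cells and 4066589 UMIs. After removal of cells with under 1000 genes or over 25% mitochondrial RNA, 729 SAA and 662 RC cells were retained. The libraries shared 1 cell barcode, which was not an S phase cell. Cells were chosen by sums of raw UMIs. E is the sum over *Elane*, *Mpo*, *Prtn3* and *Ctsg*, which encode azurophil granule proteins. C sums the specific granule genes *Camp*, *Ngp*, *Ltf* and *Fcnb* and the transcription factor *Cebpe*, M the monocyte genes *Csf1r*, *Ccr2*, *F13a1*, *Ms4a6c* and *Ly86*, and K the cycling genes *Mki67*, *Top2a*, *Birc5*, *Ccna2*, *Stmn1* and *Pclaf*. S sums *Cdc6*, *Ccne2*, *Dtl*, *E2f1*, *Hells*, *Uhrf1* and *Chaf1b*, and P sums *Ccnb1*, *Ccnb2*, *Cdc20*, *Cenpf*, *Cenpa*, *Plk1* and *Aurka*. An S phase cell had C of at least E and above M, K of at least 5, and S of at least 3 and above P. This gave 193 of 1391 retained cells, 117 from SAA and 76 from RC.

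Granulocytes mature in the marrow through promyelocytes, which make azurophil granule proteins, and myelocytes, which make specific granule proteins and are the last stage that divides. At the start of S phase, E2F transcription factors switch on cyclin E, which drives entry into S phase, and the licensing factors that load the MCM helicase at origins of replication. Interferons act through transcription factors that bind short promoter elements, and switch on antiviral genes, guanylate-binding and immunity-related GTPases and MHC class I presentation.

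Promoter stretches of 4 genes of S phase and 4 interferon genes are shown first. *Cdc6*, *Hells* and *Dtl* are of the S sum that chose these cells, *Mcm5* is a licensing gene outside it, and the interferon genes are of the lists with the highest ratios between the conditions. The stretches shown are ones that hold a match. They are RefSeq windows of GRCm38.p6, read in the direction of the gene and lying upstream of its RefSeq start. In the S phase genes, capitals mark words of the E2F element (TTTCCCGC, TTTCGCGC, TTTGCCGC or TTTGGCGC on either strand). They are chr11:98907998-98908035 (plus strand), chr19:38930913-38930950 (plus strand), chr1:191575545-191575567 (minus strand) and chr8:75109341-75109382 (plus strand). *Cdc6* loads MCM helicases, *Hells* remodels chromatin, *Dtl* directs the destruction of the licensing factor CDT1, and *Mcm5* is a subunit of the helicase.
Cdc6: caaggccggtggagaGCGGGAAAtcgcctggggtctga
Hells: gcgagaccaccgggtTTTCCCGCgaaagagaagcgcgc
Dtl: aaagcgtgacgtcagTTTGGCGC
Mcm5: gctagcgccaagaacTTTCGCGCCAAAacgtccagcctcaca
In *Mcm5* the capitals are overlapping matches on the 2 strands.

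In the interferon genes, capitals mark the core of the interferon-stimulated response element (GAAANNGAAA on either strand). The stretches are chr3:142620589-142620628 (plus strand), chr3:142530268-142530307 (plus strand), chr11:48871421-48871465 (minus strand) and chr4:156200860-156200911 (minus strand). *Gbp2* and *Gbp7* encode guanylate-binding proteins, *Irgm1* an immunity-related GTPase and *Isg15* a ubiquitin-like protein.
Gbp2: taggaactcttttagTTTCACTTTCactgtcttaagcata
Gbp7: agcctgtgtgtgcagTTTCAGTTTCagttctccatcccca
Irgm1: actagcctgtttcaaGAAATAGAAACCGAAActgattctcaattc
Isg15: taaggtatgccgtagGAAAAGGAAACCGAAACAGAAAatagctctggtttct
The capitals of *Irgm1* and *Isg15* are overlapping matches. Within 250 bases upstream, an E2F word was found in 3 of 6 windows matched to the S sum genes, 7 of 20 of licensing genes and 2 of 26 of fork and polymerase genes, against 422 of 19407 windows (2.17%) of all genes in the files. The interferon core was found in 10 of 13 windows of interferon-gamma-inducible GTPases, 23 of 48 of type I interferon-stimulated genes and 3 of 14 of MHC class I genes, against 586 of all 19407 (3.02%). The word TTCNNNGAA, of the gamma-activated sequence, lay in 6 of the 13 GTPase windows and in 6.94% of all windows. Only the first window of each gene was searched, and *Uhrf1* and *H2-K1* have 2 windows each. *Uhrf1*, *E2f1*, *Chaf1b*, *Mcm2* and *Pcna* held no E2F word in the window searched, and *Oasl2* and *H2-K1* no interferon core. These are matches of letters and were not tested for binding.

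The sums that chose the cells are given as a description. C had a median of 515 UMIs in SAA (lowest 118, highest 945) and 667 in RC (141 to 1318). S had a median of 7 (3 to 22) in SAA and 6 (3 to 15) in RC, and P of 1 (0 to 11) in SAA and 0 (0 to 4) in RC. K stood at 15 in SAA and 16.5 in RC. A cell thus carried few UMIs of the genes that mark its phase and many of those that mark its granules. The median depth was 6769 UMIs and 1997 genes in SAA and 6529 UMIs and 1809 genes in RC. The plot of S against P shows the S phase cells below the diagonal and the cells in G2 and mitosis above it.

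**Figure D1:**
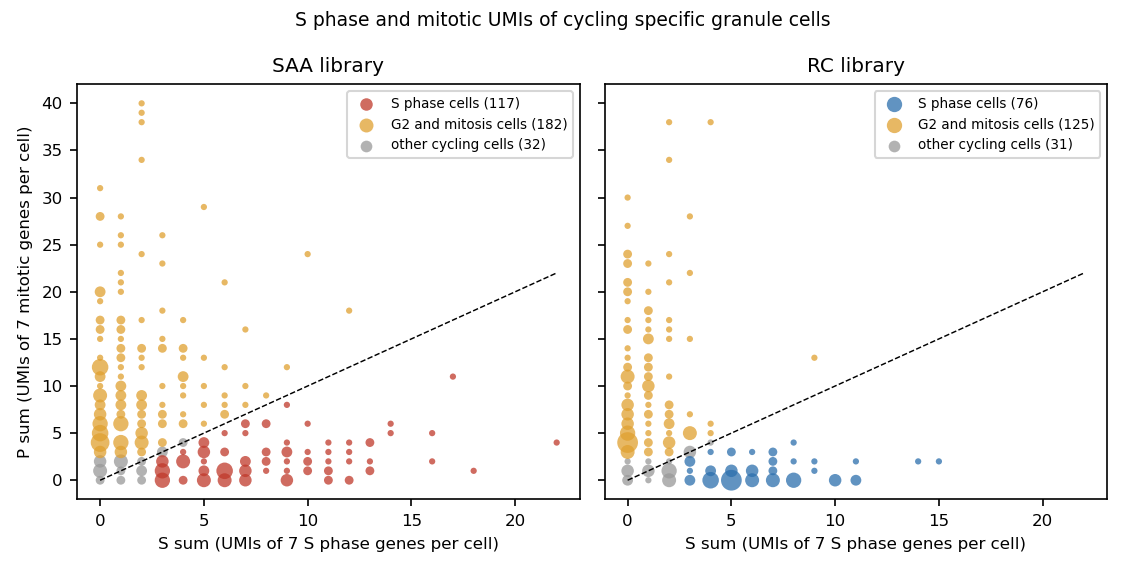
Each point is a value of the S sum (horizontal, UMIs of 7 S phase genes per cell) and the P sum (vertical, UMIs of 7 mitotic genes) among cycling cells with C of at least E and above M, and its area grows with the number of cells. The 117 SAA (left, red) and 76 RC (right, blue) S phase cells lie below the dashed line of equal sums, and the 182 SAA and 125 RC cells in G2 and mitosis (orange) above it.

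At the edge of the rule, 16 SAA and 7 RC S phase cells had an S sum of exactly 3, and 5 SAA and 11 RC cells fell just outside with an S sum of 2 above P. S exceeded P by 1 in 12 SAA and 4 RC S phase cells, and 5 cells of each library were outside because both sums were equal at 3 or more. E reached at least 0.5 of C in 2 SAA and 1 RC S phase cells. Cells with S and K of the same size but E above C, 12 in SAA and 21 in RC, were left out. The rule counts raw UMIs and so depends on depth: when each cell was thinned to 2600 UMIs and the rule applied again, 40 SAA and 24 RC cells met it, and 40 of the 117 SAA and 23 of the 76 RC S phase cells were kept.

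The label was checked against its markers. *Fcnb*, a lectin of granules at the myelocyte stage, was found in 114 of 117 SAA and 76 of 76 RC S phase cells. *Cebpe*, which drives specific granule genes, was found in 108 and 67. *Cdc6*, the cyclin gene *Ccne2* and *Uhrf1*, which keeps DNA methylation through replication, had UMIs in 60, 94 and 88 of the SAA cells and in 35, 54 and 57 of the RC cells. These 5 genes belong to the rule. Specific granule genes outside it were abundant as well, with 37562 CPM in SAA and 42198 CPM in RC (CPM, UMIs of the gene per 1000000 UMIs of the summed cells). Among them are *Lcn2*, which encodes the iron-scavenging lipocalin, with 8152 CPM in SAA and 8585 CPM in RC, and lysozyme, *Lyz2*, with 7260.1 CPM in SAA and 10667 CPM in RC. After thinning to 2600 UMIs, *Lcn2* and *Lyz2* were each found in 100% of S phase cells of both libraries. Each was found in 0 of 29 SAA cells with T cell genes. Those cells were chosen by a T cell sum of at least 5 UMIs that exceeded C, M and E. Low granule sums were thus part of their choice, and the comparison is a description. Neither gene was set here beside monocytes of the same gate.

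The gate and the study address monocytes, and the defining monocyte genes were at or near 0 in these cells. The M sum had 43 UMIs in SAA and 2 in RC, in 5 of 117 and 2 of 76 cells, and 31 of the 43 lay in 1 SAA cell. *Csf1r*, the receptor for the monocyte growth factor, had 1 UMI in each library. *Ccr2* had 11 UMIs in SAA and 0 in RC. Erythroid genes had 0 UMIs in SAA and 2 in RC, and megakaryocyte genes 1 in each. T and NK cell genes had 208 CPM in SAA and 271 CPM in RC, of which 168 SAA and 133 RC UMIs were *Nkg7*, which encodes a granule membrane protein of cytotoxic cells. Other monocyte genes stood at 2518 CPM in SAA and 1786 CPM in RC, and 3 of 8 measured were at least 2-fold higher in SAA, beside 9.88% of all genes. None of the 4 with at least 20 UMIs in RC alone was. The 3 were *Cd74*, with 40 UMIs in 8 SAA cells, 90% of them in 4 cells, and 0 UMIs in RC, *Ctss*, with 24 UMIs in SAA and 0 in RC, and *Mpeg1*, which encodes perforin-2, with 137 UMIs in SAA and 14 in RC, the last 2 named after their values were seen. Scrublet, a doublet caller, marked 1 SAA and 0 RC S phase cells, and these were kept.

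Within each library the S phase cells were set beside cells with the same granule rule that were in G2 and mitosis (P at least 3 and above S, 182 SAA and 125 RC) or not cycling (K under 5, 60 SAA and 36 RC). The name non-cycling rests on the K sum alone. Of these cells, 11 SAA and 12 RC had K of 2 to 4 with S of at least 3 and above P. Since the rule sorted the cells by their cycle genes, these ratios are a description. The median of all genes stood at 0.019 in SAA and -0.045 in RC on the log2 scale for S phase over G2 and mitosis cells, and at 0.23 in SAA and 0.19 in RC over non-cycling cells. Replication licensing genes stood at 2429 CPM against 1209 CPM in SAA and 2177 CPM against 930.3 CPM in RC, S phase cells before G2 and mitosis cells. Members of this list were higher in S phase cells in 23 of 24 in SAA and 21 of 23 in RC, with median log2 ratios of 0.89 in SAA and 0.93 in RC. For fork and polymerase genes these were 26 of 29 in SAA and 28 of 28 in RC, at 2796 CPM against 1525 CPM in SAA and 3091 CPM against 1203 CPM in RC, with medians of 0.93 in SAA and 1.33 in RC. Nucleotide supply genes were higher in 16 of 20 in SAA and 16 of 17 in RC, with median log2 ratios of 0.61 in SAA and 0.98 in RC. Mitotic genes outside the rule went the other way, at 2238 CPM against 6251 CPM in SAA and 2002 CPM against 6523 CPM in RC, and were higher in S phase cells in 1 of 40 in SAA and 0 of 39 in RC, with medians of -1.56 in SAA and -1.59 in RC. Over non-cycling cells, licensing genes had a median log2 ratio of 1.49 in SAA but 0.445 in RC. They stood at 2429 CPM against 795 CPM in SAA and 2177 CPM against 1343 CPM in RC. Fork and polymerase genes had medians of 1.69 in SAA and 1.22 in RC over non-cycling cells, and nucleotide supply genes of 1.68 in SAA and 1.42 in RC.

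Among genes outside the rule with at least 50 UMIs, the 12 with the highest smaller ratio of S phase over G2 and mitosis cells in the 2 libraries included *Tshz1*, *Dnajb9*, *Slfn9*, *Usp37*, *Ccne1*, *Wdhd1*, *Manea*, *Mcm2*, *Timeless*, *Pidd1* and *Zgrf1*. *Slfn9*, of the Schlafen family, had a ratio of 4.23 (3.09–5.86) in SAA and 4.88 (2.84–8.698) in RC, with exact 95% intervals that cover counting error only. *Ccne1*, the other cyclin E gene, had one of 3.44 (2.41–4.95) in SAA and 3.71 (1.86–7.72) in RC. *Usp37*, which encodes a deubiquitinase acting on cyclin A, had 4.02 (2.63–6.24) in SAA and 5.89 (3.38–10.7) in RC. *Mcm2*, another helicase subunit, had 3.17 (2.44–4.13) in SAA and 4.31 (2.92–6.45) in RC, and *Timeless*, which protects the replication fork, 3.81 (2.23–6.69) in SAA and 3.12 (1.71–5.79) in RC. *Wdhd1*, which ties the helicase to polymerase alpha, had 3.45 (2.298–5.25) in SAA and 3.44 (2.06–5.82) in RC. The 12 include licensing, fork and cyclin genes beside *Tshz1*, a zinc finger factor, and *Dnajb9*, a chaperone of the endoplasmic reticulum.

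Replication-dependent histones, which package new DNA, did not follow the licensing genes. The names S phase and G2 and mitosis rest on the S and P sums, and histone levels did not follow those names. The reason was not tested. Histones stood at 2801 CPM against 3762 CPM in SAA and 2318 CPM against 3704 CPM in RC, S phase cells before G2 and mitosis cells. They were higher in S phase cells in only 6 of 23 in SAA and 2 of 23 in RC, with medians of -0.44 in SAA and -0.82 in RC. Against non-cycling cells they were higher in 17 of 17 in SAA and 12 of 12 in RC, at 2801 CPM against 203 CPM in SAA and 2318 CPM against 157 CPM in RC, with medians of 2.305 in SAA and 2.59 in RC. Of the 12 genes highest over non-cycling cells, 4 were histones: *Hist1h1b*, *Hist1h1d*, *Hist1h2ae* and *Hist1h2ap*. *Hist1h1b*, a linker histone, had 439 UMIs in SAA S phase cells and 1 in non-cycling SAA cells, and 218 and 4 UMIs in the same cells of RC. Histone UMIs were spread unevenly, from 0 to 123 per S phase cell in SAA (median 14) and from 0 to 75 in RC (median 7), and 8 SAA and 9 RC cells had none. After thinning, histones correlated across cells with the K sum at r = 0.44 in SAA (117 cells) and 0.41 in RC (76 cells) and with the S sum at -0.22 and -0.24. These correlations describe cells of 1 library each that share depth. The other 8 genes were *Esco2*, *Brip1*, *Tyms*, *Tk1*, *Spc24*, *Sgo2a*, *Pbk* and *H2afx*. *Tyms* and *Tk1*, which supply thymidylate, had 61 and 78 UMIs in SAA S phase cells and 2 and 1 in non-cycling SAA cells. In RC they had 79 and 80 UMIs in S phase cells and 2 and 4 in non-cycling cells.

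**Figure D2:**
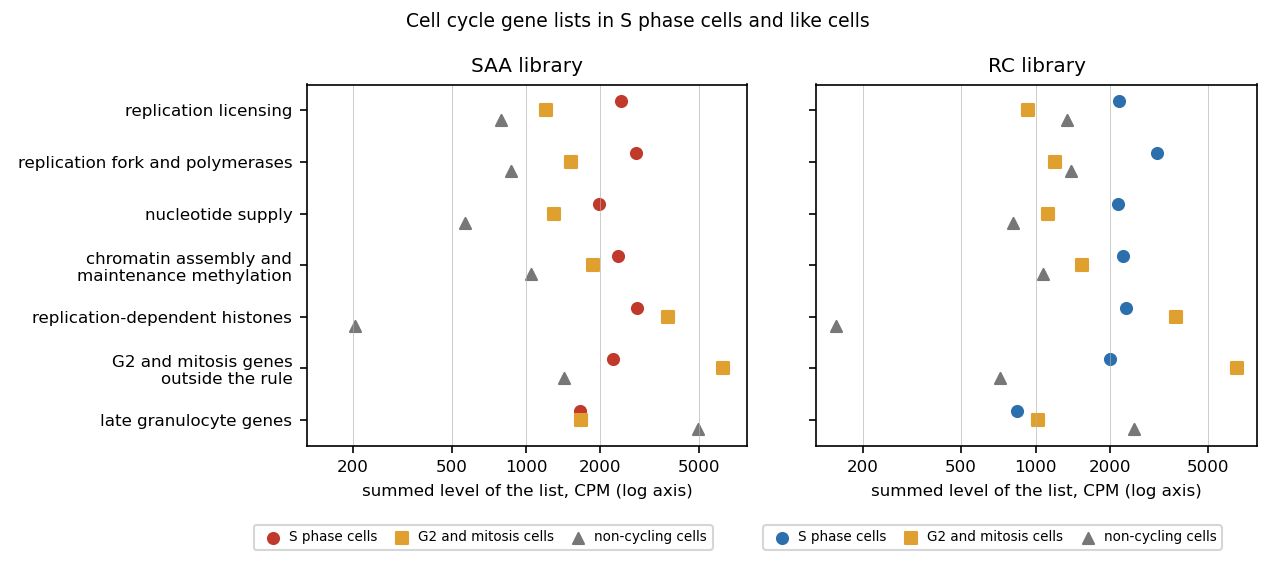
Summed level of 7 gene lists (CPM, log axis) in S phase cells (circles), G2 and mitosis cells (squares) and non-cycling cells (triangles) of SAA (left) and RC (right). Licensing, fork, nucleotide and chromatin assembly genes are highest in S phase cells of both libraries, histones and mitotic genes in G2 and mitosis cells, and late granulocyte genes in non-cycling cells.

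Late granulocyte genes, expressed after division has ended, were lower in S phase than in non-cycling cells, at 1650.1 CPM against 4961 CPM in SAA and 844 CPM against 2512 CPM in RC. They were higher in 0 of 21 in SAA and 2 of 13 in RC, with medians of -1.08 in SAA and -0.87 in RC. Among the 182 SAA and 125 RC cells in G2 and mitosis, 5 and 1 had a C sum under 20, and T and NK cell genes stood at 498 CPM there in SAA, against 208 CPM in SAA S phase cells. In non-cycling SAA cells they stood at 631 CPM, and 4 of these 60 cells had a C sum under 20. The part of these cells in the ratios was not tested.

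The S phase cells ranged from azurophil-rich to azurophil-free. E had a median of 21 UMIs in SAA (0 to 216) and 3 in RC (0 to 269). No E UMI was found in 7 of 117 SAA cells (5.98%, exact interval 2.44–11.9%) and in 24 of 76 RC cells (31.6%, 21.4–43.3%). E was 20 or more in 62 SAA and 19 RC cells. In cells with E of 20 or more, C stood at 59604 CPM in SAA and 71743 CPM in RC, and in the other cells at 90080.5 CPM in SAA and 109235 CPM in RC. After thinning, E and C correlated across cells at r = -0.71 in SAA and -0.70 in RC. E followed azurophil genes outside the rule, at 0.67 in SAA and 0.75 in RC, and C followed specific granule genes outside it, at 0.76 in both. Both sums are parts of the same number of UMIs per cell and of the rule, which left out cells with E above C, so the correlation of E with C is a description of cells chosen on both.

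Late granulocyte genes stood at 1276 CPM in SAA cells with E of 20 or more and 2201 CPM in the others, and at 522 CPM and 978 CPM in the same cells of RC. Ribosome biogenesis genes went the other way, at 2563 CPM and 1797 CPM in SAA and 2206 CPM and 1447 CPM in RC. Licensing genes differed less, at 2497 CPM and 2329 CPM in SAA and 2187 CPM and 2173 CPM in RC.

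**Figure D3:**
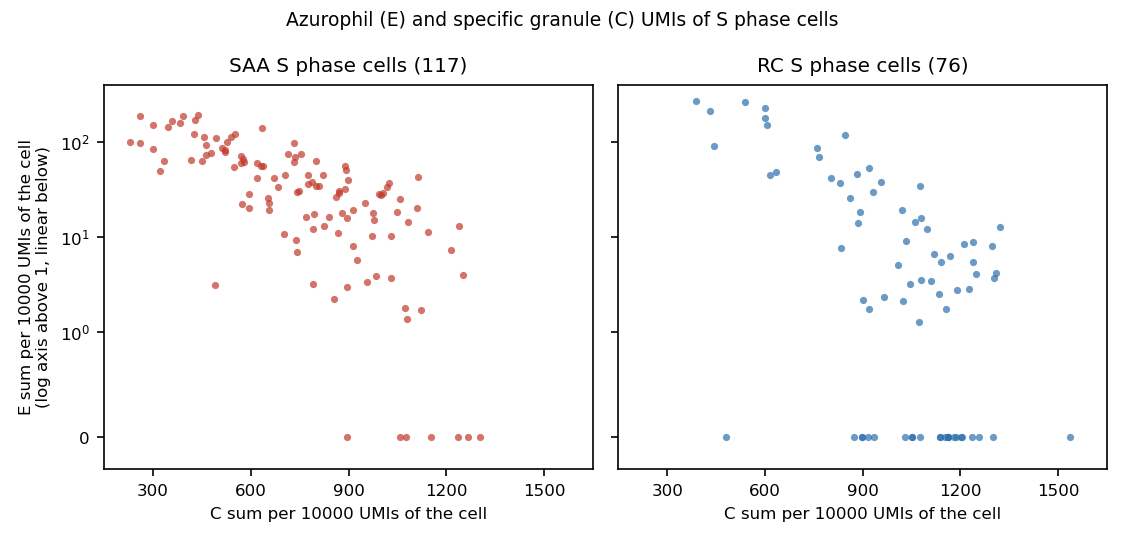
The C sum (horizontal) and E sum (vertical, log axis above 1) per 10000 UMIs of each S phase cell, for 117 SAA (left) and 76 RC cells (right). Cells rich in E lie at low C in both libraries, and the row at 0 holds 7 SAA and 24 RC cells.

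S phase cells made up 16.05% (exact 95% interval 13.5–18.9%) of retained SAA cells and 11.5% (9.15–14.2%) of retained RC cells. Among cells with the same granule rule the shares were closer, at 29.9% (25.4–34.7%) of 391 SAA cells and 28.4% (23.04–34.2%) of 268 RC cells. Among the cycling ones they were 35.3% of 331 in SAA and 32.8% of 232 in RC. After thinning to 2600 UMIs, 5.75% (4.14–7.74%) of 696 SAA and 4.11% (2.65–6.05%) of 584 RC cells met the rule. The intervals cover counting error of cells, and the sort sets which cells could be seen. With 1 library each, condition and library cannot be told apart.

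To compare SAA with RC, the UMIs of the S phase cells were summed, giving 830838 in SAA and 516375 in RC. Of 5599 genes with at least 20 UMIs in both together, 553 (9.88%) were at least 2-fold higher and 159 (2.84%) at least 2-fold lower in SAA. The median gene stood 0.20 higher in SAA on the log2 scale. With that median set to 0, the counts were 399 higher and 290 lower. *S100a8* and *S100a9*, the subunits of calprotectin, took 17.7% of UMIs in SAA and 25.2% in RC, and together with the C genes 24.9% and 35.0%. Where a few abundant genes take a smaller share of a library, the CPM of all other genes stand higher by construction, so list medians are given beside the median of all genes. A gene with 0 UMIs in a library was set against a floor of 3 UMIs there, and its fold is a lower bound. Ratios below are CPM in SAA over CPM in RC, with exact 95% intervals for counting error in parentheses.

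Interferon-inducible genes and MHC class I genes were higher in SAA. The 21 interferon-gamma-inducible GTPases in the files summed to 1313 CPM in SAA and 34.9 CPM in RC, a ratio of 37.7 (23.7–63.8). Of the 84 measured genes of the interferon and MHC lists, 78 were at least 2-fold higher, beside 9.88% of all genes. The 84 include 1 gene of MHC class II, *Cd74*. That count is a description, because 64 of the 84, and 2763 of all 5599 genes (49.3%), had under 20 UMIs in RC and could pass the filter through SAA. Among genes with at least 20 UMIs in RC alone, 16 of 20 of these lists were at least 2-fold higher, beside 92 of 2836 of all genes. All 12 measured GTPases had under 20 RC UMIs, 6 of them 0, and their median log2 ratio of 3.95 supports nothing by itself. *Gbp2* (chromosome 3, 142620602 to 142638008, GRCm38) had 187 UMIs in SAA and 0 in RC, at least 38.7-fold higher. It was found in 68 of 117 SAA cells, with 0 to 11 UMIs per cell (median 1), and in 0 of 76 RC cells, which allows a share of cells with a UMI of up to 3.95%. *Gbp7* had 177 UMIs in SAA and 3 in RC, a ratio of 36.7 (12.3–179.5). *Irgm1* had 105 UMIs in SAA and 1 in RC, 65.3 (11.5–2602), and *Igtp*, of the same family, 128 UMIs in SAA and 4 in RC, 19.9 (7.58–74.1). *Gbp2b* had 58 UMIs in SAA and 0 in RC, at least 12.02-fold higher. A UMI of any of these GTPases was found in 107 of 117 SAA cells and 15 of 76 RC cells. Per 10000 UMIs, 93 SAA cells lay above the highest RC cell.

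The 55 type I interferon-stimulated genes in the files summed to 3377 CPM in SAA and 618 CPM in RC, a ratio of 5.47 (4.87–6.16). Of 32 measured, 29 were at least 2-fold higher in SAA (median log2 ratio 3.42), beside 9.88% of all genes. Of the 32, 28 had under 20 RC UMIs. Of the other 4 genes 3 were at least 2-fold higher (median 1.16), beside 92 of 2836 of all such genes. *Ifitm3*, an interferon-induced antiviral membrane protein gene outside the lists, had 2300.1 CPM in SAA and 132 CPM in RC, a ratio of 17.5 (13.7–22.6). A UMI was found in 112 of 117 SAA cells, with a median of 17 UMIs and up to 43, and in 35 of 76 RC cells, with up to 6. The highest RC cell thus stood below the median SAA cell. *Oasl2*, of the oligoadenylate synthetase family, had 173 UMIs in SAA and 0 in RC, at least 35.8-fold higher. *Isg15* had 113 UMIs in SAA and 1 in RC, 70.2 (12.4–2798), and *Bst2*, which encodes tetherin, 201 UMIs in SAA and 3 in RC, 41.6 (14.05–204). *Rtp4* had 77 UMIs in SAA and 0 in RC, at least 15.95-fold higher. *Ddx60* had 96 UMIs in SAA and 2 in RC, 29.8 (8.04–249.9). *Samhd1*, which breaks down the nucleotides used for DNA synthesis, had 474 CPM in SAA and 42.6 CPM in RC, 11.1 (7.25–17.97). Per 10000 UMIs of the cell, 99 of 117 SAA cells lay above every RC cell in the summed list.

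MHC class I presentation genes summed to 9688 CPM in SAA and 1743 CPM in RC, a ratio of 5.56 (5.19–5.96). Of 16 measured, 15 were at least 2-fold higher in SAA (median log2 ratio 2.64), beside 9.88% of all genes. Among them were 8 of the 9 with at least 20 UMIs in RC alone (median 2.34), beside 92 of 2836 of all such genes. *H2-K1* (chromosome 17, 33996017 to 34000347) had 1843 CPM in SAA and 221 CPM in RC, 8.35 (6.897–10.2), with 3 to 40 UMIs in SAA cells (median 13) and 0 to 6 in RC cells (median 1). *H2-D1* had a ratio of 5.699 (4.93–6.61), and *B2m*, the light chain of class I molecules, had 3038 CPM in SAA and 612 CPM in RC, 4.96 (4.41–5.598). The summed list separated the libraries most clearly of the interferon and MHC lists, with 113 of 117 SAA cells above the highest RC cell per 10000 UMIs. *H2-Q7* had 316 UMIs in SAA and 3 in RC, 65.5 (22.2–319), *H2-Q6* 134 UMIs in SAA and 3 in RC and *H2-T22* 107 UMIs in SAA and 2 in RC. Class I genes are near-identical copies and differ between C57BL/6 and BALB/c, and how the counting split their reads was not tested. MHC class II genes were sparse, and only *Cd74*, with 40 UMIs in SAA and 0 in RC, had enough UMIs.

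The other interferon-gamma genes summed to 4920.3 CPM in SAA and 1999 CPM in RC, a ratio of 2.46 (2.299–2.64). Of 23 measured, 21 were at least 2-fold higher (median log2 ratio 2.31), beside 9.88% of all genes. Among them were 5 of the 7 with at least 20 UMIs in RC alone (median 1.91), beside 92 of 2836 of all such genes. *Zbp1*, a sensor of nucleic acids, had 114 UMIs in SAA and 0 in RC, at least 23.6-fold higher. *Psmb9*, an immunoproteasome subunit, had 559.7 CPM in SAA and 149 CPM in RC, 3.75 (2.94–4.84), and the proteasome activator *Psme1* 527 CPM in SAA and 155 CPM in RC, 3.403 (2.68–4.37). *Ly6c2*, which encodes the Ly6C antigen used in the sort, had 1520.2 CPM in SAA and 1141 CPM in RC, 1.33 (1.21–1.47). *Ly6a* had 55 UMIs in SAA and 0 in RC, but these lay in 4 cells, and without the 2 SAA cells with 3 or more M sum UMIs both libraries were at or under the floor. Receptors and JAK-STAT genes differed less, with 2 of 11 at least 2-fold higher, beside 9.88% of all genes, and a median of 0.43. None of the 6 with at least 20 UMIs in RC alone was 2-fold higher. The receptor gene *Ifngr1* had 75.8 CPM in SAA and 81.3 CPM in RC, 0.932 (0.621–1.41). Also among the 20 genes of highest interval were *AW112010*, with 152 UMIs in SAA and 5 in RC, *Lap3*, an aminopeptidase gene, with 60 UMIs in SAA and 0 in RC, and *Slfn1*, with 58 UMIs in SAA and 0 in RC.

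The same lists in the cells in G2 and mitosis gave median log2 ratios of 3.85 for GTPases, 3.09 for type I genes and 2.495 for MHC class I. In non-cycling cells they were 4.58, 2.83 and 2.49. These values come from the same 2 libraries, and no difference between the cell classes was tested. Within SAA, GTPases had a level of 1313 CPM in S phase cells, 1433 CPM in G2 and mitosis cells and 2062 CPM in non-cycling cells.

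**Figure D4:**
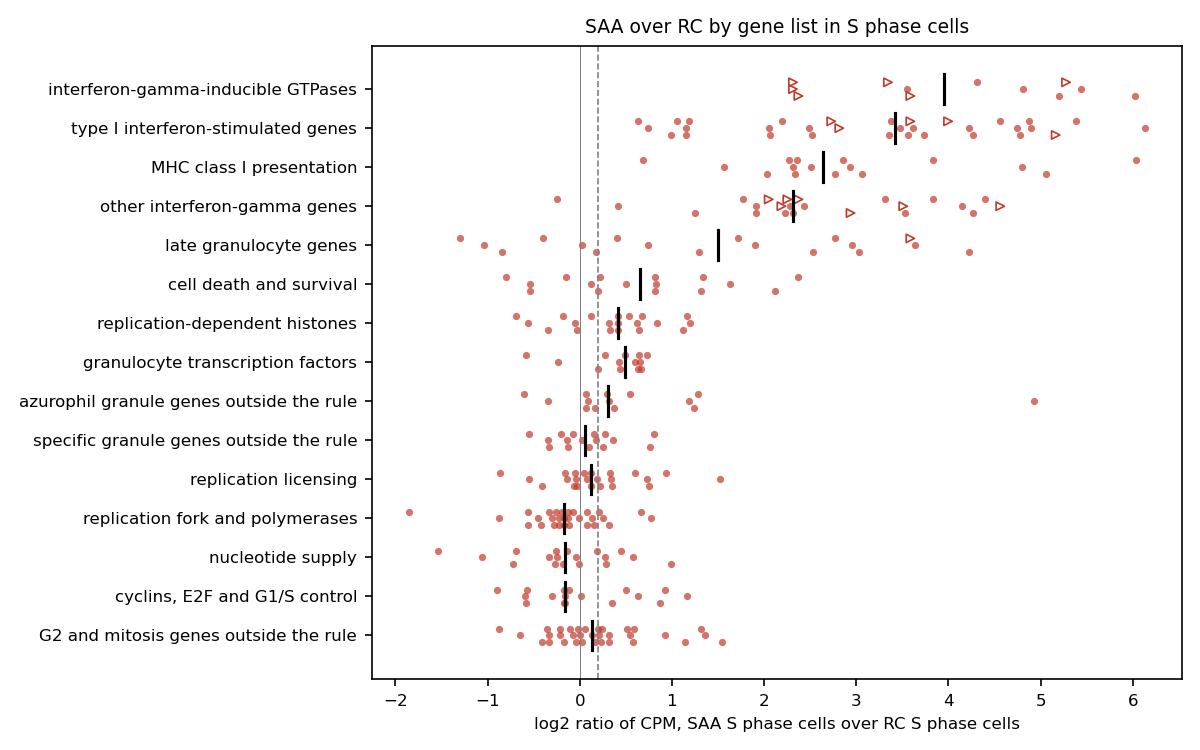
Log2 ratio of CPM, SAA over RC S phase cells, for each gene with at least 20 UMIs in 15 lists. Open triangles are lower bounds of genes with 0 RC UMIs, black bars the list medians and the dashed line the median of all genes at 0.20. The 4 interferon and MHC lists shown lie furthest to the right, and the medians of the licensing, fork, nucleotide and cyclin lists left of the dashed line.

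*Lipg*, which encodes endothelial lipase and lies outside all lists, had the highest bound of the genes with 0 RC UMIs. It had 277 UMIs in SAA and 0 in RC, at least 57.4-fold higher. The UMIs were spread over 86 of 117 SAA cells, with 0 to 11 per cell (median 2). It was found in 141 of 182 SAA and 2 of 125 RC cells in G2 and mitosis, in 40 of 60 SAA and 0 of 36 RC non-cycling cells and in 11 of 31 SAA and 2 of 50 RC azurophil-rich cells. No UMI was found in the 154 cycling monocyte-like SAA cells, which allows a share of cells with a UMI of up to 1.95%. After thinning to 2600 UMIs, 45.3% of SAA S phase cells and 0 of 29 SAA cells with T cell genes, which by the same limit of 3 counts allows 10.3%, held a *Lipg* UMI.

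Of 18 late granulocyte genes, 10 were at least 2-fold higher and 2 at least 2-fold lower in SAA, beside 9.88% and 2.84% of all genes. Their median log2 ratio was 1.505, and 0.57 with no filter on UMIs. Of the 18, 10 had under 20 RC UMIs. Over the other 8 the median was -0.11, with 2 at least 2-fold higher, beside 92 of 2836 of all such genes. All 28 in the files summed to 1650.1 CPM in SAA and 844 CPM in RC, a ratio of 1.95 (1.75–2.18). *Fpr2*, a receptor for formyl peptides and lipid mediators, had 369.5 CPM in SAA and 63.9 CPM in RC, 5.78 (4.03–8.55). UMIs were present in 97 of 117 SAA cells, with up to 10 UMIs, and in 19 of 76 RC cells, with up to 4. After thinning to 2600 UMIs it was found in 60.7% of SAA and 19.7% of RC S phase cells and in 0 of 29 SAA cells with T cell genes. *Mxd1*, which encodes a partner of MAX that opposes MYC, had 166 CPM in SAA and 67.8 CPM in RC, 2.45 (1.68–3.66). *Slfn1*, an interferon-inducible gene, is also in this list. *Ly6g*, whose product was gated out, had 102 CPM in SAA and 184 CPM in RC, 0.556 (0.4101–0.753). The 2 lower genes were *Slpi*, an antiprotease, with 44 UMIs in SAA and 56 in RC, and *Padi4*, which modifies histones in neutrophil traps, with 19 UMIs in SAA and 29 in RC, named after their values were seen. Of 16 cell death and survival genes 5 were at least 2-fold higher (median 0.66), beside 9.88% of all genes. The 5 include 2 of the 7 with at least 20 UMIs in RC alone, beside 92 of 2836 of all such genes. *Mcl1*, which protects granulocytes from apoptosis, had a ratio of 2.53 (1.66–3.98), and the pro-apoptotic *Bak1* one of 3.11 (1.99–5.04). The other 3, named after their values were seen, were *Casp1*, *Casp4* and *Gsdmd*, all of pyroptosis, with 70 UMIs in SAA and 10 in RC, 75 UMIs in SAA and 9 in RC and 60 UMIs in SAA and 15 in RC.

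**Figure D5:**
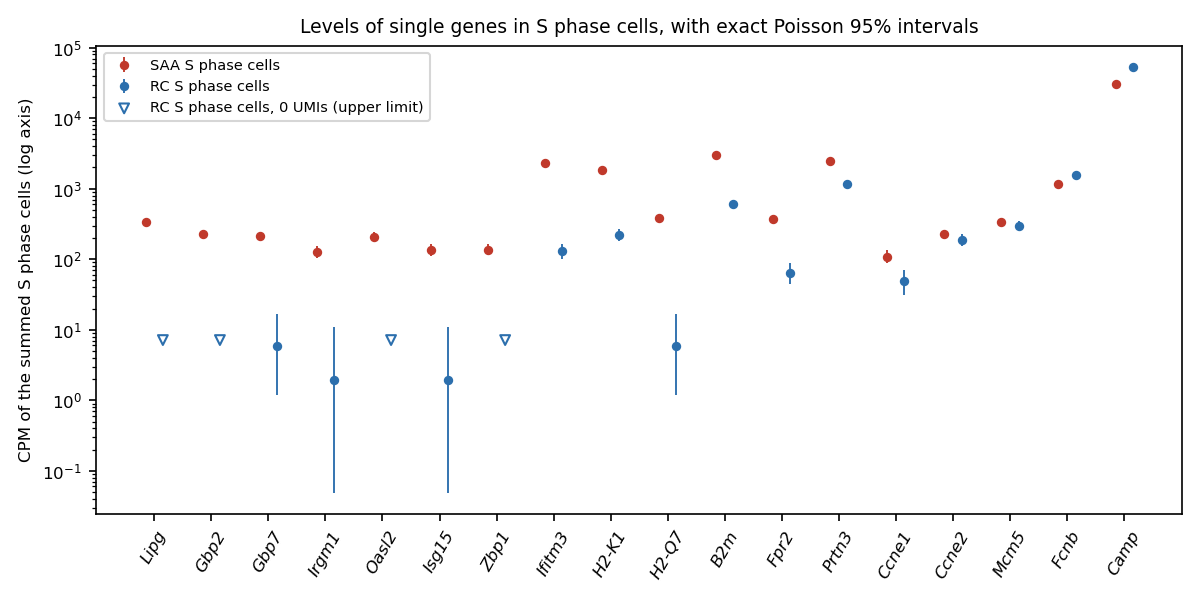
CPM (log axis) of 18 genes in summed SAA (red, left of each pair) and RC (blue) S phase cells with exact Poisson 95% intervals, and open triangles for the upper limit of 0 UMIs. SAA lies above the RC interval for Lipg to Prtn3 and Ccne1, the intervals of Ccne2 and Mcm5 overlap, and Fcnb and Camp are lower in SAA.

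Most genes of the replication machinery differed by less than 2-fold between SAA and RC, as did most of all genes (9.88% higher and 2.84% lower by 2-fold). The cells of both libraries were chosen by S and K, so these levels are a description. Of 23 licensing genes 1 was at least 2-fold higher and none lower (median log2 ratio 0.12, and -0.064 with TMM and -0.068 with median of ratios scaling), which is below the median of all genes. That gene was *Donson*, which helps to assemble the replicative helicase, with 37 UMIs in SAA and 8 in RC, named after its values were seen. *Mcm5* had 339 CPM in SAA and 298 CPM in RC, 1.14 (0.932–1.39), with a median of 2 UMIs per cell in both libraries. *Mcm6* had a ratio of 0.983 (0.789–1.23) and *Mcm7* one of 1.03 (0.8097–1.32). Fork and polymerase genes had a median of -0.17, with 1 of 29 at least 2-fold lower. This was *Pold1*, the catalytic subunit of polymerase delta, with 16 UMIs in SAA and 36 in RC, 0.276 (0.143–0.511), found in 13 of 117 SAA and 30 of 76 RC cells. *Pcna*, the sliding clamp, had 474 CPM in SAA and 519 CPM in RC, 0.914 (0.7804–1.07), and *Lig1*, which joins Okazaki fragments, 199.8 CPM in SAA and 273 CPM in RC, 0.732 (0.581–0.922). Nucleotide supply genes had a median of -0.16. *Tyms* had 73.4 CPM in SAA and 153 CPM in RC, 0.4799 (0.338–0.679), and *Tk1* 0.606 (0.438–0.838), while *Rrm2*, of ribonucleotide reductase, had 1.22 (1.02–1.47). Chromatin assembly genes had a median of -0.02 and repair and checkpoint genes of -0.16.

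Of 17 cyclin, E2F and G1/S genes, with a median of -0.16, none was 2-fold lower, beside 2.84% of all genes. *Ccne1* was the only one at least 2-fold higher, beside 9.88% of all genes. It had 108 CPM in SAA and 48.4 CPM in RC, 2.24 (1.42–3.64), and was found in 55 of 117 SAA and 16 of 76 RC cells. *Ccne2* had 1.198 (0.933–1.55). *Ccnd3*, the D-type cyclin of this list with the most UMIs, had 416 CPM in SAA and 229 CPM in RC, 1.82 (1.47–2.27). The genes of the S sum, on which the cells were chosen, had ratios of 0.997 for *Cdc6*, 1.01 for *Uhrf1*, 1.21 for *Hells* and 1.31 for *Chaf1b*. Of 3 CDK inhibitors measured, *Cdkn1b* had 0.544 (0.315–0.932), *Cdkn2c* 0.594 (0.316–1.12) and *Cdkn2d* 1.52 (1.03–2.28). *Cdkn1b* was found in 25 of 117 SAA cells, with up to 3 UMIs, and in 20 of 76 RC cells, with up to 7. Its interval does not cover this spread between cells. Of 7 p53 targets measured none was 2-fold higher or lower (median 0.21, and -0.15 with a stricter filter on cells).

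The rule limits mitotic UMIs to fewer than the S sum, whose median was 7 in SAA and 6 in RC, so the values of the P sum and its genes are a description. A P sum of 0 was found in 30 of 117 SAA cells (25.6%, 18.02–34.5%) and 44 of 76 RC cells (57.9%, 46.0–69.1%), and one of 3 or more in 36 SAA and 7 RC cells. *Ccnb2*, a mitotic cyclin, had 61 UMIs in SAA and 13 in RC, 2.92 (1.59–5.79), and *Cenpa*, the centromeric histone, 58 UMIs in SAA and 11 in RC, 3.28 (1.703–6.92). Mitotic genes outside the rule had a median log2 ratio of 0.13, with 4 of 33 at least 2-fold higher, and of -0.057 with TMM and -0.061 with median of ratios scaling. Histones had a median of 0.42, with 3 of 20 at least 2-fold higher, and 1 of the 12 with at least 20 UMIs in RC alone. *Hist1h2ap* had 585 CPM in SAA and 382 CPM in RC, 1.53 (1.297–1.82). Among K genes, *Top2a*, which untangles DNA, had 1.38 (1.17–1.65) and *Stmn1*, which regulates microtubules, 0.619 (0.543–0.705).

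Granule transcripts differed by gene. *Camp*, the cathelicidin gene, had 30788 CPM in SAA and 52886 CPM in RC, 0.582 (0.572–0.592), with a median of 208 UMIs per SAA cell (50 to 460) and 339 per RC cell (66 to 665). *Ngp* had 0.909 (0.893–0.926), lactoferrin, *Ltf*, 0.912 (0.869–0.957), and *Fcnb* 0.747 (0.6798–0.821), while *Cebpe* had 1.297 (1.09–1.55). Specific granule genes outside the rule had a median of 0.06, and of -0.13 with TMM or median of ratios scaling, with 0 of 16 past 2-fold. *S100a8* and *S100a9* had 0.714 (0.707–0.721) and 0.687 (0.6796–0.695), and *Lyz2* 0.681 (0.656–0.706). Of the azurophil genes, *Prtn3*, which encodes proteinase 3, was at least 2-fold higher, with 2509.5 CPM in SAA and 1154 CPM in RC, 2.17 (1.98–2.39). It was found in 110 of 117 SAA and 46 of 76 RC cells, and after thinning in 86.3% of SAA and 50% of RC S phase cells. After thinning it was in 0 of 29 SAA cells with T cell genes, whose choice required E below their T cell sum. *Elane*, of neutrophil elastase, had 1.09 (1.01–1.18), *Mpo*, of myeloperoxidase, 1.28 (1.11–1.49) and *Ctsg*, of cathepsin G, 1.18 (0.779–1.802). *Elane* was found in 96 of 117 SAA and 44 of 76 RC cells, *Mpo* in 74 and 22 and *Ctsg* in 29 and 15. In RC, 4 cells held 48.5% of *Elane* and 60.2% of *Mpo* UMIs, and in SAA 21.1% and 27.0%. The intervals do not cover this spread between cells. Outside the rule 4 of 14 azurophil genes were at least 2-fold higher, beside 9.88% of all genes. Of the 12 with at least 20 UMIs in RC alone, 2 were, beside 92 of 2836 of all such genes. Among the 4 were *Ctsc*, *Ctsz* and *Ctsd*, all lysosomal enzymes, named after their values were seen. *Ctsc*, which activates the granule serine proteases, had 49 UMIs in SAA and 1 in RC, a ratio of 30.5 (5.22–1227).

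The 15 genes of lowest interval were *Atp6v0c*, *1810058I24Rik*, *H2afj*, *Rbm3*, *Camp*, *S100a11*, *Smim27*, *Pold1*, *Anxa5*, *Smim11*, *Ccdc125*, *Rnf7*, *1700020L24Rik*, *Stk39* and *Ncam1*. *Rbm3*, a cold-inducible RNA-binding protein gene, had 285 CPM in SAA and 596 CPM in RC, 0.478 (0.402–0.568). *Atp6v0c*, of the vacuolar proton pump, had 83.05 CPM in SAA and 244 CPM in RC, 0.3404 (0.2500–0.4600). *H2afj*, a histone variant that is not tied to replication, had 167 CPM in SAA and 414 CPM in RC, 0.404 (0.324–0.502). *Anxa5*, which encodes annexin V, had 23 UMIs in SAA and 45 in RC, 0.318 (0.183–0.536). *Smim27* had 20 UMIs in SAA and 46 in RC, 0.2702 (0.151–0.466). *Camp* and *S100a11*, at 0.5697 (0.507–0.641), are below 1 but short of 2-fold. *Kit*, the stem cell factor receptor of early progenitors, had 1 UMI in SAA and 17 in RC, a ratio of 0.0366 (0.000875–0.233). UMIs were present in 1 of 117 SAA and 15 of 76 RC cells, and in 2 of 182 SAA and 31 of 125 RC cells in G2 and mitosis. *Kit* was found in 1 of 154 SAA and 0 of 90 RC cycling monocyte-like cells. It has under 20 UMIs in total and lies outside the counts of genes.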

How the data were processed

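Single-cell 5' v2 libraries were made from sorted marrow cells of 3 pooled mice per condition. The deposited values are raw UMI counts per gene and cell, made by the authors with Cell Ranger 6.0.1 on mm10, per the labels. Cells had at least 1000 genes and at most 25% mitochondrial RNA. Members and gene lists were chosen with earlier results of these data known. Counts were summed per library and divided by the total (CPM). Ratios of SAA to RC have exact conditional binomial intervals, shares exact Clopper-Pearson intervals (for 0 cells, the limit that 3 counts of the total give) and levels exact Poisson intervals, all at 95% and for counting error only. Genes had at least 20 UMIs over both libraries, a call was a ratio of at least 2 or at most 0.5, and a count of 0 was set to a floor of 3 UMIs over the group. Genes were named by rule: the 20 highest and 15 lowest by the bound of the interval nearest 1 among genes with at least 50 UMIs, the 3 most abundant of each list, the genes of the sums, and the 12 highest over each like class. Some single genes are not reported here. For comparison at equal depth, cells were thinned to 2600 UMIs. Of 31053 gene identifiers, 30934 matched the annotation. The alternatives were other depths, filters, thresholds and scalings (edgeR 4.0.16 TMM, R 4.3.3). Calculations used Python 3.11.15, scipy 1.17.1, pandas 2.3.3 and scanpy 1.11.5 (Scrublet), and were tested on simulated data.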

Additional observations from a re-analysis of the deposited data

How the results depend on the processing

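No paired analysis was possible because each condition was 1 library of pooled cells. Under 13 alternatives, 346 list medians stayed within the main interval of the median over the list's genes and 17 left it. A change of sign was counted only where the main ratio was at least 2-fold, and 1 list median changed it. Medians nearer 0 changed sign too. That of p53 targets kept it in 5 of 9 alternatives, of chromatin assembly genes in 10 of 13 and of licensing genes in 11 of 13. Fork and nucleotide supply medians kept it in all 13. For single genes, 139 values left the interval set by counting error, and 1 of those at least 2-fold in the main sums changed sign. The interferon and MHC medians of at least 5 genes stayed at 1.86 or above, with GTPases from 2.87 to 5.20, type I genes from 2.20 to 3.48 and MHC class I from 2.34 to 2.61. With at least 20 UMIs in RC alone, an alternative added after seeing the data that keeps out genes low in RC by construction, 92 genes were higher and 80 lower, the median was -0.11 for late granulocyte and 1.91 for other interferon-gamma genes, and under 5 GTPases and type I genes were left for a median. The 20 highest and 15 lowest genes kept their sign in every alternative except *Ly6a*, which kept it in 10 of 12. With TMM scaling, 413 genes were at least 2-fold higher and 276 lower, and median log2 ratios were -0.064 for licensing, -0.35 for fork, -0.35 for nucleotide supply, -0.204 for chromatin assembly and -0.34 for cyclin genes. With median of ratios scaling, 400 were higher and 288 lower, and the same medians were -0.068, -0.36, -0.35, -0.21 and -0.35. These scalings remove the shift of the median gene by construction. With at least 50 UMIs 248 genes were higher and 34 lower, and with no filter 1158 and 903, as fewer or more genes entered. After thinning to 3600 UMIs, the median was 0.43 for mitotic genes outside the rule and 2.04 for other interferon-gamma genes, and *Cd48*, with 4 SAA UMIs and 1 RC UMI in the main sums, turned from 1.31 to -0.62 on the log2 scale. Among cells with a P sum of at most 1, an alternative chosen after seeing the data, medians were 0.42 for the S sum, 0.16 for chromatin assembly, 0.044 for azurophil genes outside the rule and 1.86 for other interferon-gamma genes. S phase shares of retained cells were 5.75% in SAA and 4.11% in RC after thinning, 17.9% in SAA and 15.3% in RC with at least 1500 genes and at most 10% mitochondrial RNA, 12.8% in SAA and 8.76% in RC with S of at least 5, and 13.4% in SAA and 7.55% in RC with K of at least 10. The cause of these moves was not tested.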

Other observations

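Ribosome biogenesis genes stood at 2253 CPM in SAA and 1669 CPM in RC in S phase cells, with a median log2 ratio of 0.498 against 0.20 for all genes. Of 15 measured, 1 was at least 2-fold higher, beside 9.88% of all genes. *Eif5a*, a translation factor, had 480.2 CPM in SAA and 312 CPM in RC, a ratio of 1.54 (1.28–1.86). *Alas1*, which starts haem synthesis, had 238 CPM in SAA and 122 CPM in RC, 1.95 (1.46–2.64), while the ferritin light chain *Ftl1* had 0.8801 (0.792–0.979). Of the neutrophil oxidase, *Cybb* had 1.21 (1.12–1.300) and *Cyba* 0.907 (0.835–0.985). *Hsp90aa1*, a chaperone gene in the list of stress genes, had 563 CPM in SAA and 279 CPM in RC, 2.02 (1.67–2.45). Granulocyte transcription factors had a median of 0.49, with 0 of 13 past 2-fold.

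Marker genes of mast cells, basophils and eosinophils were found in 12 of 117 SAA and 22 of 76 RC S phase cells, those of stem and early progenitor cells in 17 and 21, and those of B and plasma cells in 10 and 16. *Kit* belongs to both the mast cell and the stem cell markers, and was found in 1 SAA and 15 RC cells. Dendritic cell markers, of which *Bst2* is also an interferon-stimulated gene, were found in 79 SAA and 6 RC cells. Of cells outside the filter, 41 in SAA and 31 in RC had C of at least E and above M, and 0 met the full rule.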
